A study of Sus scrofa with 64 samples.

Results

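Oxidative phosphorylation genes were followed across 16 tissues of the pig. The members were the probes whose platform gene symbol begins with NDUF, UQCR or ATP5, is SDHA, SDHB, SDHC or SDHD, or begins with COX and a digit. They were 82 of the 23935 probes that are not controls, and they measured 64 genes. Complex I had 32 genes, complex II 4, complex III 2, complex IV 8 and complex V 13, which gave 59 subunit genes, and 5 genes code for assembly or associated proteins (NDUFAF1, NDUFAF2, NDUFAF3, COX10 and ATP5S). NDUFA4 was counted with complex IV, to which its product is now assigned. A gene with several probes was represented by the brightest one, and 5 further probes were left out since the annotation gave them several symbols. Several familiar members, among them COX4I1, COX6A2, COX8A, COX5A, UQCRC1 and UQCRFS1, had no probe with a single symbol and were not analysed here.

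Total RNA of each tissue came from the same 4 pigs, a Large White male and female slaughtered at 87 days and an Iberian female and male at 89 days, housed together and fed the same diets. Each tissue of each pig was hybridised to 1 Affymetrix porcine array, 64 arrays in all. The tissues were 2 skeletal muscles (diaphragm, from its crura, and Biceps femoris), liver, stomach and ileum, abdominal and back fat, whole blood from a vein, the medulla and cortex of the adrenal gland, thyroid gland, both lobes of the hypophysis, pineal gland, hypothalamus and olfactory bulb. The weights were 38.8 kg for the Large White male, 36.2 kg for the Large White female, 25.4 kg for the Iberian male and 32.8 kg for the Iberian female. A breed was thus 2 animals, a male and a female. The piglets had been bought from breeding companies, and which company supplied which breed was not given in the sources used here.

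In the inner membrane of mitochondria, complexes I and II pass electrons from NADH and succinate to ubiquinone, complex III passes them on to cytochrome c, and complex IV, cytochrome c oxidase, hands them to oxygen. The proton gradient built on the way drives complex V, the ATP synthase. Most of these subunits are coded in the nucleus, and a few subunits of complex IV exist as products of separate genes, one of them used mainly by heart and skeletal muscle. Complex II is also an enzyme of the citrate cycle.

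Levels are log2 values of the array signal after RMA normalization, on which a difference of 1 unit is a doubling, and they are given as mean ± SD over arrays. Since probes differ in their response, levels were compared between tissues of a gene and not between genes. The tissues were tested in one limma fit of the 64 arrays, and a gene was called at a Benjamini-Hochberg adjusted p under 0.05 over all probes. The labels were checked with 57 tissue marker genes in 58 list entries, of which 48 were highest in the tissue they mark. In hypothalamus this held for 2 of 5 and in neurohypophysis for 1 of 3, and that 1 was POMC, which is also listed for, and was not highest in, adenohypophysis. One array stood apart, the pineal gland of the male Large White. Over all probes its deviations had an r of 0.58 with the other 3 pineal arrays and of 0.87 with hypothalamus, whereas the other 3 had 0.88 to 0.89 and 0.50 to 0.52. Pineal results are therefore also given without it. In bulk tissue, fewer cells of a type and less RNA per cell cannot be told apart. The difference between the 3′ and 5′ control probes of actin, a sign of RNA quality, was 2.10 ± 0.09 in diaphragm, 1.88 ± 0.11 in Biceps femoris and 3.25 ± 0.19 in blood (SD, n = 4), and between 1.98 and 2.76 on average in the other tissues. The part of this in the results below was not tested. With 4 animals, p-values measure the spread among these arrays and not among pigs at large. The number of animals, not of arrays, limits what can be said of other pigs.

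All 64 genes differed among the 16 tissues, as did 98.2% of all probes. The range between the highest and the lowest tissue mean had a median of 2.57 log2 units over the genes, against 1.74 over all probes. Diaphragm was the highest tissue for 51 genes and Biceps femoris for 6, and blood was the lowest tissue for 54. Outside muscle the adrenal cortex and the stomach were each the highest tissue for 17 genes. The shares of all probes with these tissues highest or lowest were not counted here, so these counts are a description. The map of deviations by gene and tissue shows the columns of muscle and blood, together with a few genes that run against them.

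**Figure D1:**
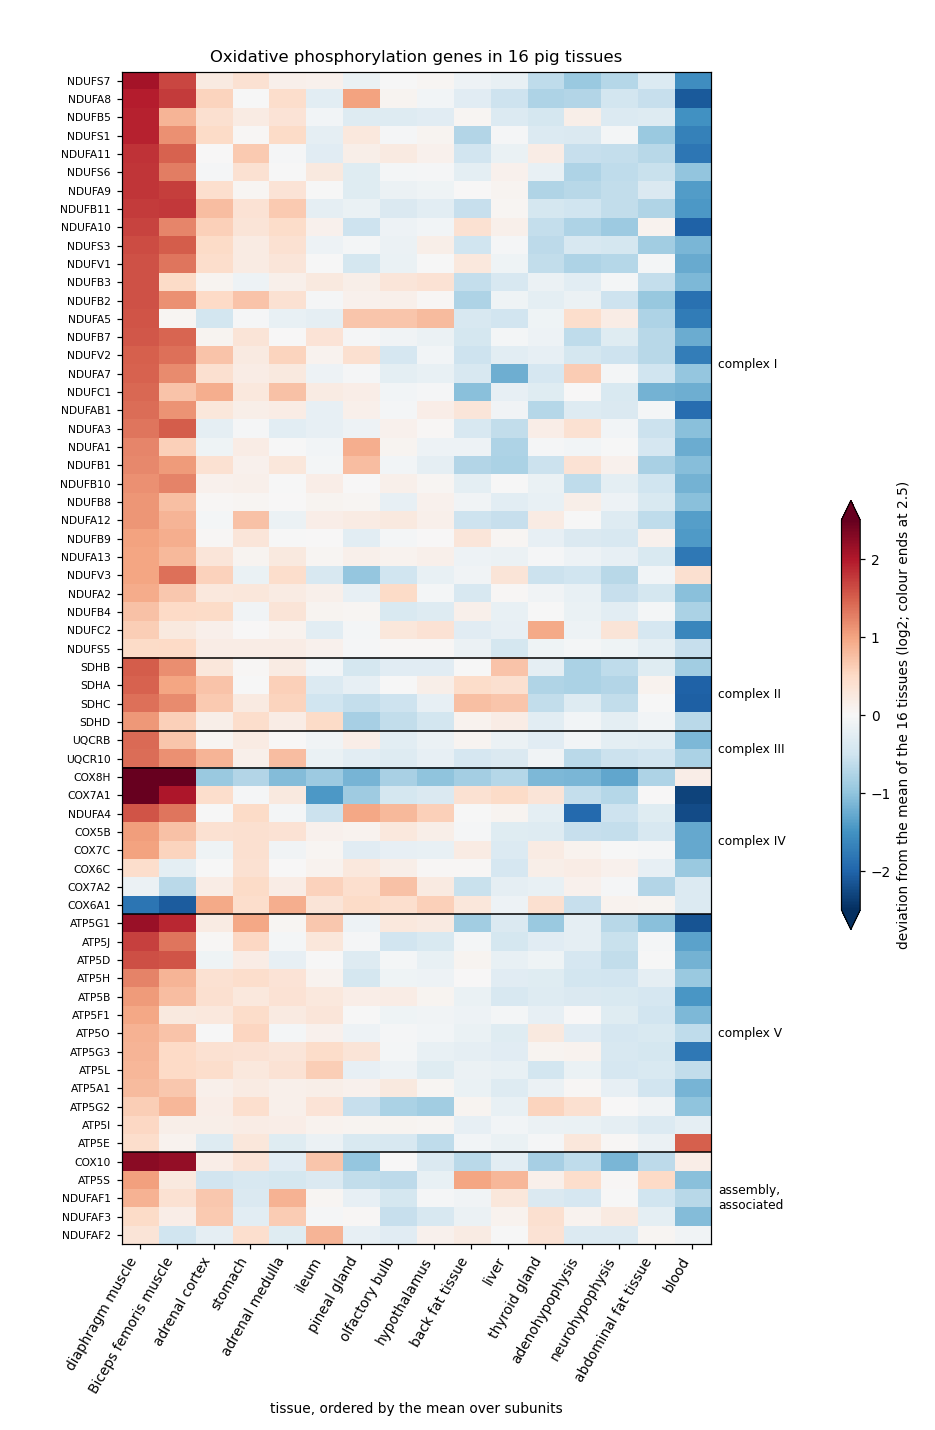
Deviation of each gene (rows, by complex) from its mean over the 16 tissues (columns, ordered by the mean over subunits), in log2 units of the tissue mean of 4 arrays. Diaphragm and Biceps femoris are red in nearly all rows and blood is blue, whereas COX6A1 is blue in both muscles and ATP5E is red in blood.

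When the deviations of the 59 subunit genes were averaged in each array, diaphragm stood at 1.32 ± 0.08 and Biceps femoris at 0.98 ± 0.08 (SD, n = 4), and the arrays of these tissues overlapped neither each other nor any other tissue. Adrenal cortex (0.25 ± 0.09), stomach (0.24 ± 0.23) and adrenal medulla (0.19 ± 0.05) came next and overlapped. Ileum, pineal gland, olfactory bulb and hypothalamus lay between 0.00 and -0.05. Below them, back fat (-0.18 ± 0.05), liver (-0.18 ± 0.16), thyroid (-0.22 ± 0.14), adenohypophysis (-0.29 ± 0.07), neurohypophysis (-0.36 ± 0.07) and abdominal fat (-0.40 ± 0.07) each overlapped with the neighbour in this order. Blood stood alone at -1.20 ± 0.20.

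**Figure D2:**
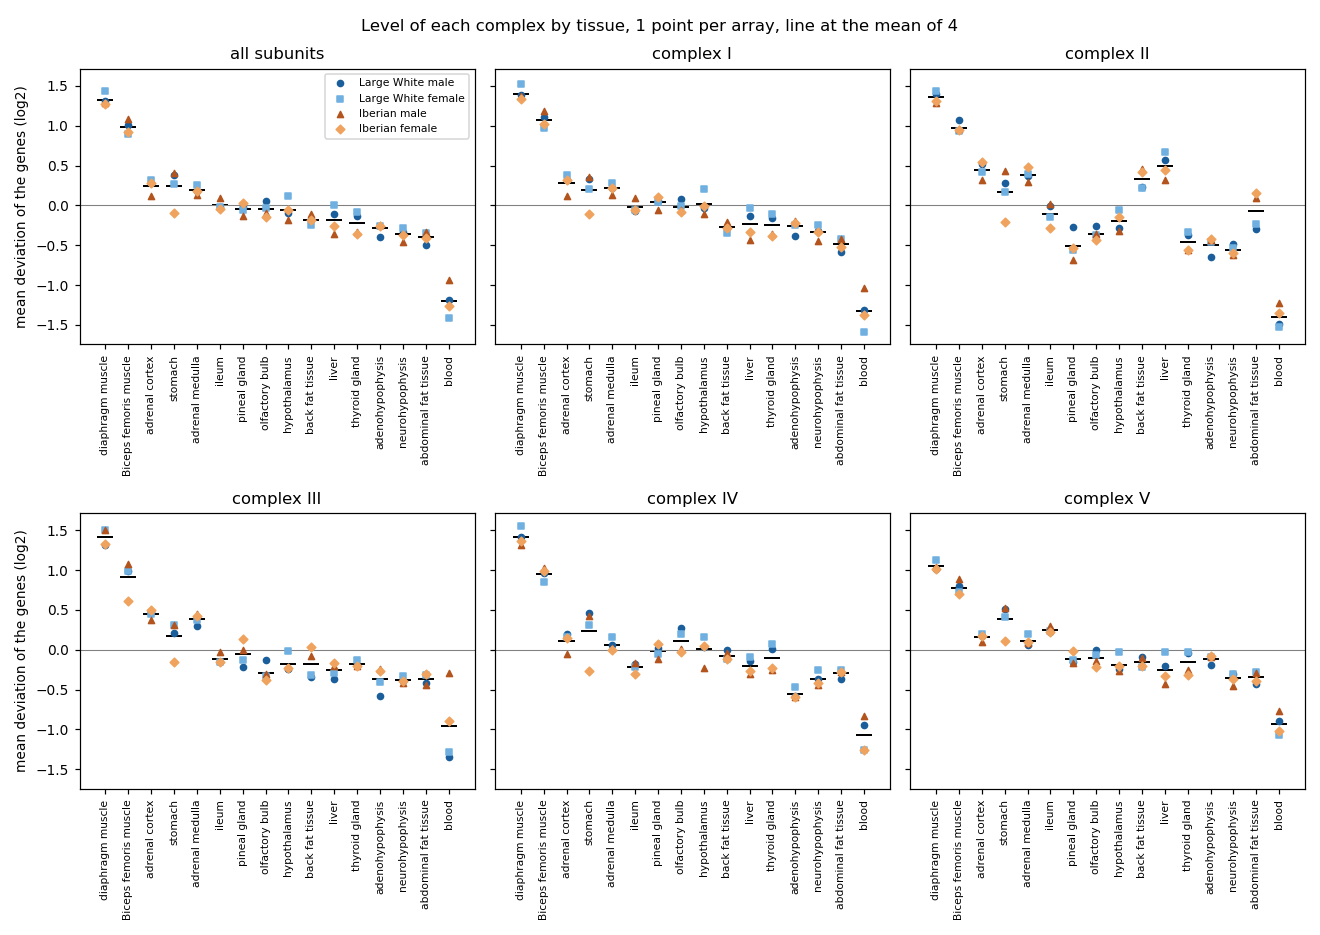
Mean deviation of the genes of each complex (log2, y axis) in the 16 tissues (x axis), with 1 point per array and a line at the mean of the 4 animals. Both muscles are highest and blood is lowest in each of the 6 panels, and complex II is the panel in which liver (0.50) and back fat (0.33) lie well above 0.

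The first comparison set both skeletal muscles, 8 arrays, against the 14 other tissues, 56 arrays. Of the 64 genes, 60 were higher in muscle, against 35.4% of all probes, 2 were lower, against 34.9% of all probes, and 2 did not pass (COX6C and NDUFAF2). The median difference was 1.22 log2 units over the members and 0.02 over all probes. By complex the median was 1.48 for complex I, 1.43 for complex II, 1.33 for complex III, 0.95 for complex IV and 0.83 for complex V, and all genes of complexes I, II, III and V were among those called higher. In 27 of the 64 genes each of the 8 muscle arrays lay above each of the 56 others, which was so for 2.01% of all probes. The reverse order was found for 1 gene, COX6A1, and for 0.455% of all probes.

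Complex IV held both the largest difference and both genes that were lower. COX8H, by its symbol the heart and muscle form of subunit VIII, had levels of 12.74, 12.68, 12.64 and 12.78 in diaphragm, where values here and below follow the order of male and female Large White, then male and female Iberian. In Biceps femoris of the same animals COX8H was at 12.06, 12.27, 12.45 and 12.60, and in the 56 other arrays between 4.84 and 6.59 with a median of 5.39. COX8H was thus near the top of the scale in muscle and, elsewhere, at or near the median of all probes, 5.54, where a signal can hardly be told from background. The fitted difference of 7.08 (limma adjusted p = 7.4e-54) is therefore a lower limit, and the other tissues were not ranked for this gene.

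COX7A1, the muscle form of subunit VIIa, stood at 11.42, 11.52, 11.04 and 11.20 in diaphragm and at 10.42, 10.36, 10.78 and 10.26 in Biceps femoris, in the same order of animals. The other arrays held 5.26 to 9.13 with a median of 8.28, below every muscle array. The difference was 2.79 ± 0.14 (SE, adjusted p = 1.9e-23). Outside muscle COX7A1 was not uniform, with 8.92 in liver and 8.81 in back fat but 6.99 in ileum and 6.12 in blood. COX7A2, its counterpart in other tissues, was lower in muscle by a small amount, -0.47 ± 0.06 (SE, adjusted p = 6.7e-09). Its muscle arrays, 9.48 to 10.54, lay within the 9.70 to 11.40 of the others or just below them. COX7A2 was highest in olfactory bulb, 11.31 ± 0.10, and in ileum, 11.16 ± 0.10, and lowest in abdominal fat, 9.85 against 10.02 in back fat.

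COX6A1, the form of subunit VIa found in most tissues, was the only member with all muscle arrays below all others. It was at 8.95, 9.41, 9.01 and 8.90 in diaphragm and at 8.66, 8.35, 8.86 and 9.34 in Biceps femoris. The 56 other arrays lay between 10.14 and 11.98 with a median of 11.17. The difference was -2.23 ± 0.07 (SE, adjusted p = 3.2e-32) and the groups did not overlap. COX6A1 was highest in adrenal cortex, 11.83 ± 0.16, and in adrenal medulla, 11.80 ± 0.12.

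**Figure D3:**
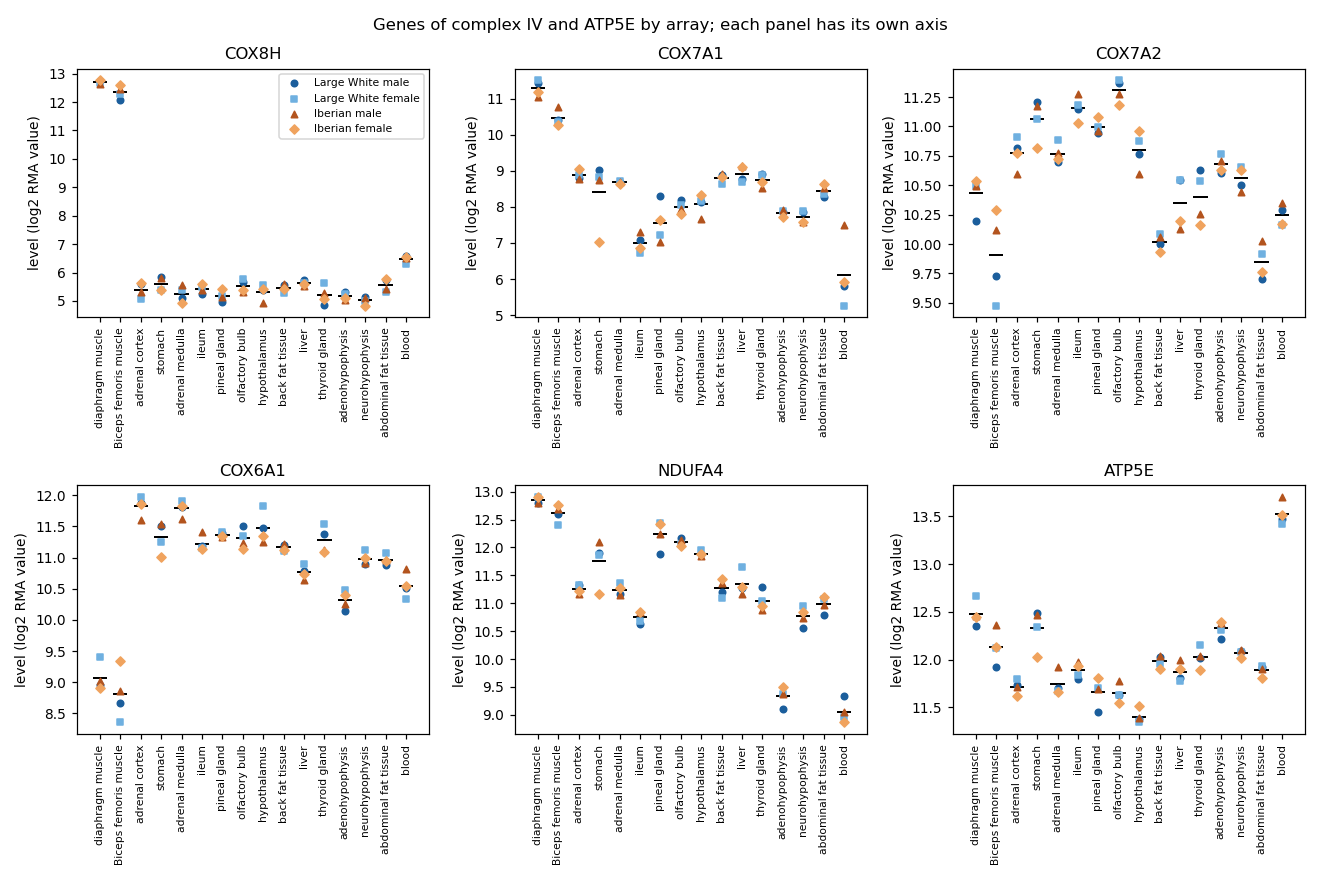
Levels of COX8H, COX7A1, COX7A2, COX6A1, NDUFA4 and ATP5E (log2 RMA value, y axis, a separate range in each panel) in the 16 tissues, with 1 point per array and a line at the mean of 4. COX8H and COX7A1 are high and COX6A1 is low in both muscles, NDUFA4 drops to 9.34 in adenohypophysis, and ATP5E peaks in blood at 13.53.

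Of the other genes of complex IV, COX5B and COX7C were higher in muscle by 1.01 ± 0.06 and 0.89 ± 0.07 (SE), and COX6C by 0.11 ± 0.07 with an adjusted p of 0.13. NDUFA4 was higher by 1.66 ± 0.07 (adjusted p = 4.6e-27), though 1 or more of the other arrays reached the lower muscle arrays, since the pineal gland stood at 12.24 ± 0.26 and the olfactory bulb at 12.10 ± 0.06. NDUFA4 had a wide range outside muscle, from these down to 9.34 ± 0.17 in adenohypophysis and 9.05 in blood.

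In complex I the differences ran from 0.48 (NDUFC2) to 2.14 (NDUFS7). NDUFS7 and NDUFA8 led, at 2.14 ± 0.09 and 2.12 ± 0.08 (SE), and NDUFB11 followed at 2.02. The core subunits NDUFV1, which binds NADH and flavin, and NDUFS1, which carries iron-sulphur clusters, were higher by 1.67 ± 0.07 and 1.75 ± 0.07 (SE). NDUFV1 had muscle arrays between 9.92 and 10.63 and others between 7.40 and 9.44. NDUFS1 had muscle arrays between 9.76 and 10.86 and others between 6.85 and 9.47, so that neither core gene overlapped. NDUFC2 and NDUFS5, at 0.48 and 0.56, were the smallest.

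The catalytic genes of complex II followed the same order, with SDHA, the flavoprotein, higher by 1.41 ± 0.07 and SDHB, the iron-sulphur subunit, by 1.52 ± 0.07 (SE). The membrane anchors SDHC and SDHD were higher by 1.46 ± 0.09 and 0.95 ± 0.07. SDHB was at 11.50 to 12.12 in muscle and at 9.07 to 11.34 elsewhere. For complex III, UQCR10 and UQCRB were higher by 1.45 ± 0.08 and 1.21 ± 0.08 (SE), and other subunits of this complex were not analysed here.

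In complex V the differences ran from 0.30 (ATP5E) to 2.31 (ATP5G1), with the lowest median of the complexes, 0.83. ATP5A1 and ATP5B, the genes for the alpha and beta subunits of the catalytic head, were higher by 0.83 ± 0.06 and 1.05 ± 0.06 (SE). The membrane ring of subunit c is coded by 3 genes whose mature products are the same protein. ATP5G1 was at 11.86, 11.97, 11.82 and 11.72 in diaphragm and at 11.67, 11.37, 11.49 and 11.73 in Biceps femoris, against 7.41 to 10.86 elsewhere, a difference of 2.31 ± 0.08 (SE, adjusted p = 6.7e-31) with no overlap. ATP5G2 and ATP5G3 were higher by 0.82 ± 0.06 and 0.77 ± 0.06 (SE), with overlap in both. Across the 14 other tissues ATP5G1 also varied most of the 3, from 10.65 in stomach to 7.53 in blood, while ATP5G2 was highest there in thyroid (10.76) and lowest in blood (9.20).

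The assembly and associated genes were led by COX10, which makes heme A precursor for complex IV, with 2.54 ± 0.12 (SE, adjusted p = 4.7e-25). COX10 was at 7.53 to 9.23 in muscle and 4.69 to 7.55 elsewhere, where its median of 5.66 was also near that of all probes. Genes around the complexes were read from lists that are not members. Of 13 assembly factors and helpers with a probe, 12 were higher in muscle and 0 lower, among them ECSIT, needed for complex I assembly, by 2.49 ± 0.07 (SE). Of 10 electron carriers and feeders, 8 were higher and 1 lower, and cytochrome c itself (CYCS) was higher by 1.70 ± 0.13. Of 14 genes for ATP export and for carriers and channels of mitochondria, 11 were higher and 3 lower. The 3 ADP/ATP translocase genes moved apart. SLC25A4, the muscle form, stood at 12.18 in muscle and 9.18 elsewhere, whereas SLC25A5 was lower, -2.77 ± 0.10, and SLC25A6 was lower, -0.88 ± 0.08 (SE). CKMT2, the mitochondrial creatine kinase of striated muscle, had 11.73 in muscle, and 3.53 elsewhere, a level below the median of all probes that serves only as a bound. Of 9 regulators of mitochondrial genes, 4 were higher and 2 lower, shares near the 35.4% and below the 34.9% of all probes. PPARGC1A, a coactivator of mitochondrial genes, was higher by 2.45 ± 0.22, and TFAM, the packaging factor of mitochondrial DNA, was lower, -0.73 ± 0.17 (SE). Median differences were 0.36, 1.20, 1.32 and -0.05 in the order of these lists, against 0.02 over all probes.

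The second comparison was between the muscles. The diaphragm is regarded as more oxidative and Biceps femoris as more glycolytic. Of the 64 genes, 29 were higher in diaphragm, against 12.1% of all probes, and 0 were lower, against 13.1% of all probes. The median difference was 0.32 log2 units, against -0.09 over all probes. Complex I contributed 11 of its 32 genes, complex IV 5 of 8, complex V 7 of 13, complex II 2 of 4 and complex III 1 of 2. In 34 genes the diaphragm was higher in all 4 animals and in 16 in 3 of them. The shares of all probes with these orders were not counted here, so the counts by animal are a description. The median over the genes was 0.27, 0.54, 0.24 and 0.18 in the 4 animals. Without the Large White female the count of genes called higher in diaphragm fell to 16.

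NDUFA5, a subunit of the peripheral arm of complex I, had the largest difference, 1.52 ± 0.30 (SE, adjusted p = 0.00017). Its diaphragm levels were 9.69, 9.47, 9.40 and 9.50, and its Biceps femoris levels 8.14, 9.24, 8.82 and 5.79, the last in the Iberian female. NDUFB3 was at 10.68, 10.67, 10.32 and 10.39 in diaphragm and at 9.92, 9.93, 9.77 and 7.94 in Biceps femoris. NDUFB5 was at 10.94, 11.11, 11.18 and 11.04 in diaphragm and at 9.91, 10.53, 10.73 and 8.82 in Biceps femoris. In each of the 3 genes the Biceps femoris array of the Iberian female was lowest, and diaphragm was above Biceps femoris in all animals. Without that array the differences were 0.78 for NDUFA5, 0.65 for NDUFB3 and 0.68 for NDUFB5, all still called, and 28 genes were higher. COX7A1 followed at 0.84 ± 0.27 (SE, adjusted p = 0.018), higher in 4 of 4 animals, but the adjusted p was 0.059 without that array. NDUFS1 was higher by 0.78 ± 0.12 (SE, adjusted p = 6.1e-06) and by 0.71 without it. COX8H differed by 0.36 ± 0.15 (adjusted p = 0.070) and COX6A1 by 0.27, whose sign was reversed in the Iberian female.

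**Figure D4:**
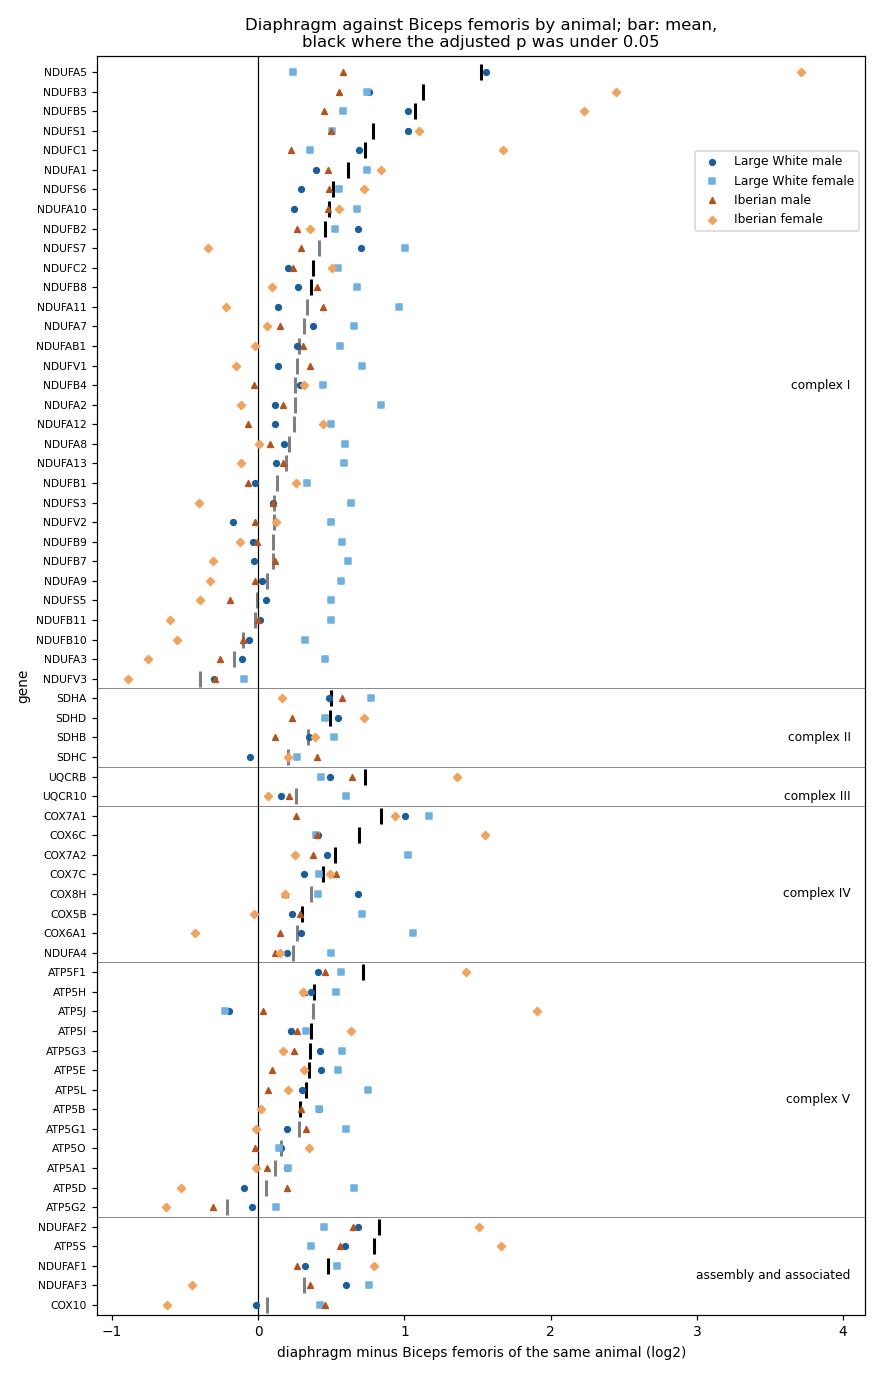
Diaphragm minus Biceps femoris of the same animal (log2, x axis) for each gene (y axis, by complex), with 1 point per animal and a bar at the mean, black where the adjusted p was under 0.05. Most bars lie right of 0, and the Iberian female sets the widest points, up to 3.71 for NDUFA5.

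Fibre type markers were read beside this. Beside the 12.1% of all probes that were higher and the 13.1% that were lower, 2 of 9 slow fibre genes were higher in diaphragm (TNNI1 and ATP2A2) and 0 lower, with 7 not called, and of 7 fast fibre genes 3 were lower and 0 higher, MYH2 by -3.56 ± 0.36, ATP2A1 by -1.68 ± 0.18 and TNNT3 by -0.46 ± 0.18 (SE). The mean level of the slow list was 11.58 to 11.75 in diaphragm and 11.28 to 11.54 in Biceps femoris, and that of the fast list 11.39 to 11.87 and 12.52 to 12.83, with no overlap in either. The part of fibre types in the result was not tested. Of the 10 electron carriers and feeders 6 were higher and 0 lower, with CYCS at 1.48 ± 0.25 and the electron transfer flavoprotein genes ETFA and ETFDH at 1.08 ± 0.22 and 0.98 ± 0.18 (SE). Of the 13 assembly factors 3 were higher and 0 lower, and of the 14 carrier and channel genes 2 were higher and 2 lower. Of the 9 regulators 1 was higher and 2 lower. Over all probes 12.1% were higher and 13.1% lower, so that these last 2 lists gave few calls beyond that share.

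Each other tissue was compared with the remaining 15, both muscles included. The adrenal gland came after muscle. In adrenal cortex 32 genes were higher, against 18.9% of all probes, and in adrenal medulla 29, against 19.9%. UQCR10 was higher by 0.91 ± 0.11 in cortex and 0.81 ± 0.11 in medulla, and COX6A1 in medulla by 0.97 ± 0.10 (SE). The layers had been parted by hand with a knife, and 3 of 4 cortex markers and 3 of 3 medulla markers were highest in their own layer. This does not show that a layer was free of the other. In the paper the samples of both layers clustered together, and it does not exclude contamination between them.

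In stomach 31 genes were higher, against 18.2% of all probes, and 4 were lower, against 21.3%. Complex V gave 12 of its 13 genes and complex IV 6 of 8, complex I 11 of 32. ATP5G1 led with 1.03 ± 0.11 (SE, adjusted p = 4.0e-11), at 10.82, 10.67, 10.86 and 10.24, the lowest in the Iberian female. NDUFA12 and NDUFB2 followed with 0.79 ± 0.08 and 0.77 ± 0.10 (SE). The genes called lower in stomach were ATP5S, NDUFAF1, NDUFAF3 and COX8H. The stomach arrays of COX8H had a median of 5.60, above the 5.43 of the 60 others, whose mean of 6.38 includes the muscle arrays, and COX8H was called lower against a mean with muscle in liver and ileum too. The stomach array of the Iberian female had a mean deviation of -0.09 over the subunits, against 0.26 to 0.41 in the other 3. The 5 of 9 listed genes of parietal cells, the acid-secreting cells rich in mitochondria, that had a probe had a mean level of 9.50, 9.17, 8.59 and 7.40 in the 4 stomach arrays, the last in the Iberian female, and between 3.58 and 5.86 in the arrays of all other tissues. The part of these cells in the result was not tested. Without the stomach of the Iberian female 40 genes were higher.

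In ileum 12 genes were higher, against 23.4% of all probes, and 14 were lower, against 29.5%. Of the genes that were higher, 6 belonged to complex V, among them ATP5G1 (0.71 ± 0.11) and ATP5L (0.65 ± 0.09, SE), while COX7A1 was lower, -1.54 ± 0.20, and NDUFA4 too, -0.57 ± 0.10.

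Liver went a different way for complex II. Over all members 7 genes were higher in liver, against 20.5% of all probes, and 28 lower, against 28.8%. Of the 4 genes of complex II, 3 were higher. SDHB was at 11.22, 11.34, 10.95 and 11.20 in liver, a difference of 0.76 ± 0.10 (SE, adjusted p = 3.4e-09), SDHC was higher by 0.74 ± 0.12 and SDHA by 0.43 ± 0.10, and SDHD by 0.20 ± 0.09 with an adjusted p of 0.053. In complex I, 1 gene was called higher, the dim NDUFV3 with a mean level of 5.52 over all arrays, and 13 were lower, led by NDUFA7, which was at 7.86, 7.82, 7.47 and 7.49 in liver and lower by -1.30 ± 0.10 (SE, adjusted p = 9.7e-16), NDUFB1 (-0.84 ± 0.12) and NDUFA1 (-0.83 ± 0.10). The liver result for NDUFA1 depended on the probe. Another probe of this gene, with a mean level of 7.45, was highest in liver, at 9.64. Its r with the brightest probe across tissues was -0.13. The SDHB result also rests on the brightest probe. Another SDHB probe, with a mean level of 7.32, was highest in ileum, at 7.92, and had an r of -0.19 with the brightest. The largest difference upward in liver was that of ATP5S, 0.88 ± 0.15.

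The mean deviation of complex II minus that of complex I was 0.73 ± 0.04 in liver, 0.61 ± 0.09 in back fat and 0.41 ± 0.22 in abdominal fat, above 0 in all 4 animals of each (SD, n = 4). It was 0.17 in both layers of the adrenal gland. In pineal gland it was -0.55 ± 0.14, or -0.62 ± 0.01 without the Large White male, in olfactory bulb -0.34 ± 0.02 and in both lobes of the hypophysis -0.23, below 0 in all 4 animals. These differences are a description of 4 genes against 32, each by its brightest probe.

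In back fat 24 genes were lower, against 23.1% of all probes, and in abdominal fat 46, against 22.4%. SDHC (0.81 ± 0.12) and SDHA (0.49 ± 0.10, SE) were higher in back fat. In abdominal fat NDUFC1 was lower by -1.26 ± 0.13 and ATP5G1 by -1.12 ± 0.11, and 25 of the 32 genes of complex I were lower. The 7 adipocyte genes with a probe had a mean level of 10.51 to 10.78 in back fat and 10.07 to 10.64 in abdominal fat.

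Among the brain tissues 22 of the 64 genes were lower in olfactory bulb, against 30.8% of all probes, and 21 in pineal gland, against 28.9%. Both shares were near those of all probes. In hypothalamus 11 were lower, a smaller share than the 34.1% of all probes. The counts thus show no clear excess of lower members in these tissues. The shares of all probes that were higher were not counted here. Some members were high in these tissues. NDUFA4 was higher by 0.87 ± 0.10 in olfactory bulb, 0.65 ± 0.10 in hypothalamus and 1.03 ± 0.10 in pineal gland (SE), and NDUFA5 by 0.74, 0.85 and 0.74. In hypothalamus COX6A1 (0.63), NDUFC2 (0.39), NDUFB3 (0.39) and COX7A2 (0.23) were also called higher. In pineal gland NDUFA8 reached 10.35 ± 0.64 (SD, n = 4), with 9.40 in the Large White male and 10.50 to 10.82 in the other animals, a difference of 1.07 ± 0.11 (SE). Without this male's array, which was closer to hypothalamus, the pineal differences were 1.38 for NDUFA8, 1.15 for NDUFA4 and 0.70 for NDUFA5, all still called, and 19 genes were lower. ATP5G2 was low in olfactory bulb and hypothalamus, by -0.84 ± 0.08 and -0.93 ± 0.08.

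In adenohypophysis 33 genes were lower, against 23.9% of all probes, in neurohypophysis 45, against 28.5%, and in thyroid 31, against 30%. NDUFA4 in adenohypophysis was at 9.10, 9.37, 9.38 and 9.50, lower by -2.07 ± 0.10 (SE, adjusted p = 1.8e-24), and this was the lowest tissue for the gene outside blood. NDUFC2 was highest in thyroid, with 10.65, 10.74, 10.53 and 10.53, above the other tissues by 1.01 ± 0.08 (SE, adjusted p = 2.1e-16).

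In blood 59 genes were lower, against 35% of all probes, and 2 were higher, against 43.5%. In 31 genes the 4 blood arrays lay below all 60 others, which was so for 5.03% of all probes. COX7A1, NDUFA4 and ATP5G1 were lowest relative to the other tissues, by -2.47 ± 0.20, -2.38 ± 0.10 and -2.30 ± 0.11 (SE). ATP5E, the epsilon subunit of the ATP synthase head, went the other way. It was at 13.47, 13.43, 13.71 and 13.52 in blood, higher by 1.58 ± 0.07 (SE, adjusted p = 2.9e-27), and it was the 1 member whose blood arrays lay above all 60 others, as did those of 8.43% of all probes. The other gene called higher, NDUFV3, was at 5.84 to 6.10 in blood, and as its mean over all arrays, 5.52, was under the median of all probes, no size is given. The 5 genes of red cells and platelets with a probe had a mean level of 10.25 to 10.59 in blood and the 10 of leukocytes 7.45 to 7.84. The part of the cell makeup in these levels was not tested.

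Each gene was also compared with the mean deviation of the other subunits across the 16 tissues. The median r was 0.88, 30 genes had r over 0.9, and 5 were under 0.5, with COX6A1 at -0.52, ATP5E at -0.28 and COX7A2 at 0.02 as the lowest. These are correlations over 16 tissue means from the same 4 animals, and the muscles and blood carry much of them. Without muscles and blood the median over 13 tissues was 0.65, while COX6A1 rose to 0.74, so that this gene was apart from the others through muscle. Among 6503 named genes that are not members, provisional LOC symbols left out, those most like the mean deviation were MRPL51 (r = 0.97), a mitochondrial ribosomal protein, CYP19A3 (0.95), VDAC2 (0.95), VAPA (0.94), RTN4IP1 (0.94), CUNH14orf2 (0.94), QRSL1 (0.94), IMMT (0.94), DLAT (0.94) and COQ9 (0.93). VDAC2 is an outer membrane channel, IMMT shapes the inner membrane, DLAT is a subunit of pyruvate dehydrogenase, and COQ9 takes part in ubiquinone synthesis. CYP19A3, VAPA, RTN4IP1, CUNH14orf2 and QRSL1 were not characterised here, so whether their products are mitochondrial was not settled.

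For 15 genes the array carried further probes, 18 in all. Of these, 7 had an r of at least 0.5 with the brightest probe across tissues, 13 gave the same call in muscle and 9 in diaphragm against Biceps femoris, and 8 were dimmer on average than the median probe. The second probes of NDUFA1, COX7C and SDHB were lower in muscle, by -1.60, -0.81 and -0.45, although the brightest ones were higher. The second probe of SDHA (r = 0.96) and that of NDUFB3 (r = 0.98) were highest in diaphragm and lowest in blood, though the second SDHA probe lost the call between diaphragm and Biceps femoris (0.30, adjusted p = 0.24). For NDUFS3, another probe ranged from 2.86 in liver to 9.88 in diaphragm.

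Between the breeds, tested on the means of the 4 animals over the 16 tissues with limma, 0 members were called, against 0.0919% of all probes. At an unadjusted p under 0.05 there were 4 (NDUFA3, SDHC, ATP5G1 and COX7C), against 13.2% of all probes. The median difference of Large White minus Iberian was 0.04. Between males and females 0 were called, against 0.0627%, and 0 had an unadjusted p under 0.05, against 3.64%. With 2 animals against 2 an exact permutation test cannot give a p below 0.333.

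The largest breed difference was that of COX7C, chosen after its values were seen. The animal means were 11.24 and 11.14 in Large White and 10.65 and 10.60 in Iberian. The difference was 0.57 ± 0.06 (SE, limma adjusted p = 0.14). In each of the 16 tissues both Large White animals were above both Iberian ones, by 0.23 in pineal gland to 1.08 in blood. The second, dim probe of COX7C did so in 8 of 16 tissues, but it was lower in Large White in 5, and in 2 of these both Iberian animals were above both Large White ones, with a Large White minus Iberian difference of -0.41 in diaphragm.

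**Figure D5:**
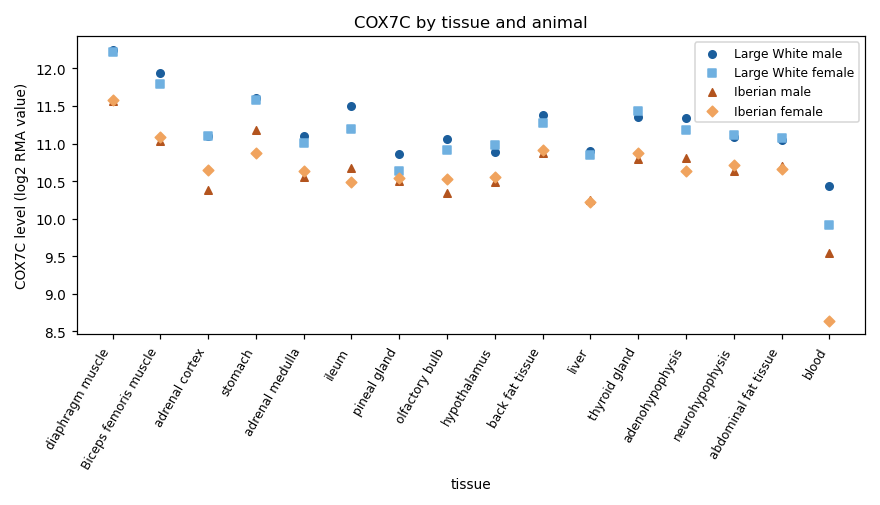
COX7C level (log2 RMA value, y axis) in the 16 tissues (x axis), with 1 point per animal and tissue. Both Large White points lie above both Iberian points in all 16 tissues.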

How the data were processed

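The authors normalized the scans of all 64 arrays together with RMA (robust multi-array average) and deposited the log2 values used here. GCOS is named in the submitters' processing notes, and its version is not given in the sources used here. Of 24123 probe sets, 188 controls were left out. The platform annotation gave 1 gene symbol to 10069 probes, several to 198 and none to 13668. All 64 member genes were found in RefSeq.

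Tissues were compared with limma 3.58.1 in R 4.3.3, with tissue, breed and sex as terms and Benjamini-Hochberg adjustment over 23935 probes. Breed and sex were tested with limma on the 4 animal means. The steps were tested on simulated data. Named genes were the isoform and core genes, and the 3 members with the largest differences in each direction among those called. The members, lists and rules were chosen with earlier results of these data known. Alternatives covered the animal as a block, other centring, probes, thresholds and left-out animals or arrays, of which the single-array ones were chosen after seeing the data.

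Each animal gave every tissue, so that replicates pair by animal. Over 480 pairs of tissues of an animal, deviations from the tissue means correlated with a mean r of 0.19, and 385 pairs were over 0.1. Promoter motifs and sequences were not analysed here.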

Additional observations from a re-analysis of the deposited data

Results flagged for a closer look

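Of 154 groups of 4 arrays, 13 held an array far from the other 3, where chance alone gives about 1 in 20 for independent groups. These groups share arrays and genes, so no excess over that rate is read from the count. For the mean deviation over all subunits the arrays far from the others were the Large White male in adenohypophysis (-0.39) and the Iberian male in adrenal cortex (0.11). For complex I it was the Iberian male in ileum (0.093). For complex III they were the Large White female in hypothalamus (-0.0098) and in thyroid (-0.12) and the Iberian male in ileum (-0.026). For complex IV they were the Large White female in adenohypophysis (-0.46) and the Large White male in abdominal fat (-0.36), and for complex V the Large White male in adenohypophysis (-0.19). Among single genes, COX7A2 was low in the diaphragm of the Large White male (10.20) and COX5B high in that of the Large White female (12.27). In Biceps femoris of the Iberian female ATP5G2 was high (11.44) and NDUFB3 low (7.94).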

How the results depend on the processing

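Of 915 values of group results under other settings, 873 stayed within the limits set for them. The limit was 1.5 times for counts of genes and the SD of the 4 arrays for mean deviations. Leaving out 1 animal can hardly move a mean of 4 arrays by that SD. Those values were thus nearly bound to stay, and their number says little of how firm the results are. Of 673 values of single genes, 637 kept direction and call, 28 lost the call, 8 gained it and 0 reversed. With the animal as a replicate block the muscle comparison gave 60 higher and 2 lower and diaphragm against Biceps femoris 29 and 0, and the block moved no count of calls by over 1.5 times. When a difference of at least 0.5 log2 units was also required, the counts were 1 lower in muscle, 14 higher in diaphragm than Biceps femoris, 16 higher in adrenal cortex, 10 in medulla and 8 in stomach. The counts of lower genes were then 8 in olfactory bulb, 3 in hypothalamus, 9 in pineal gland, 20 in adenohypophysis, 24 in neurohypophysis, 14 in thyroid, 14 in back fat, 25 in abdominal fat, 8 in liver and 4 in ileum. The shares of all probes with this further limit were not counted here, and the percentages given above do not apply to it. With all probes of a gene, 5 were lower in muscle, 2 lower in diaphragm and 23 lower in ileum. The mean deviations then were 0.15 for complex I in adrenal medulla, -0.44, 1.29 and 0.73 for complex II in neurohypophysis, diaphragm and Biceps femoris, 0.86 and -0.28 for complex IV in Biceps femoris and ileum, and 0.97 and 0.15 for complex V in diaphragm and ileum. Without blood 23 genes were lower in hypothalamus, on a natural log of the values 7 in ileum, and centred on each array's median complex III in neurohypophysis was at -0.43. Without both muscles the median r of the profiles was 0.80. With 64 arrays as replicates, though they come from only 4 animals, 4 of 64 genes were higher and 2 lower in Large White, against 6.15% and 6.57% of all probes, and with a random block 8 and 2, against 7.12% and 7.49%. The correlation fitted for the random block was -0.0063, so it hardly accounted for the animal. The causes were not tested. Leaving out 1 animal at a time gave 16 to 27 genes higher and 0 to 1 lower in diaphragm, 7 to 13 lower in hypothalamus, 17 to 28 in liver and 7 to 12 in ileum, and a median difference of -0.020 to 0.031 between males and females. Breed and sex without an animal leave no residual degrees of freedom and gave values only.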
